A study of Mus musculus with 18 samples.

Results

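The genes described here are 10 molecular chaperones, chosen by name as a family: the HSP70 proteins Hspa1a, Hspa1b, Hspa8 and Hspa5, the HSP110 protein Hsph1, the J-domain cochaperone Dnajb1, the HSP90 proteins Hsp90aa1, Hsp90ab1 and Hsp90b1, and the small heat shock protein Hspb1. All 10 were found by symbol among the 35869 genes listed. They were measured by RNA sequencing of microglia, the resident macrophages of the brain, and of astrocytes, both sorted by flow cytometry after enzymatic dissociation of the brain with inhibitors in the buffers. The animals were C57BL/6 mice. The knockout (KO) group carried Cx3cr1CreERT2 with Tgfb1 fl/fl, so that the floxed gene of transforming growth factor beta 1 can be deleted in cells that express the microglial and macrophage gene Cx3cr1. The control group, called WT in the labels' genotype field, carried Cx3cr1CreERT2 alone, so the Cre allele is shared by KO and control animals. All animals are recorded as having had 5 doses of tamoxifen at 180 mg/kg by oral gavage; age and sex are not stated in the labels. There were 4 libraries of KO microglia (animals 1 to 4), 4 of control microglia (animals 1, 2, 4 and 5), 4 of KO astrocytes (animals 1 to 4) and 5 of control astrocytes (animals 1 to 5), from 9 animals. Within a genotype, a number marks the same mouse in both cell types, whereas a KO and a control mouse with the same number are different mice. An 18th library, whose labels name both cell types, was kept out of every comparison. Values are the authors' TPM, the share of a library's transcripts after scaling for gene length, so that levels can be compared between genes.

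Chaperones bind unfolded stretches of other proteins and help them fold, refold or be degraded. In the cytosol, HSP70 proteins take substrates from J-domain proteins, release them with the help of nucleotide exchange factors such as HSP110, and pass some of them on to HSP90; Hspa5 (BiP) and Hsp90b1 (GRP94) do related work inside the endoplasmic reticulum (ER). Heat, oxidation and other protein damage activate heat shock factor 1, which binds heat shock elements at the stress-inducible genes, while misfolded proteins in the ER activate ATF6, which binds ER stress response elements. Hspa1a, Hspa1b and Dnajb1 are textbook inducible genes, Hspa8 and Hsp90ab1 are made constitutively, and cell isolation from tissue is a known inducer of stress genes.

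The promoters of 7 members were matched by symbol in RefSeq (GRCm38.p6), each covering 250 bases before and 50 after the start site; Hspa8, Hsp90aa1 and Hsp90ab1 were not matched. Those of Hspa1a (chr17:34972107-34972406, minus strand) and Hspa1b (chr17:34959189-34959488, minus strand) are shown because of their likeness. They were identical at 296 of 300 bases (98.7%), and the capitals mark the 4 bases that differ.
Hspa1a: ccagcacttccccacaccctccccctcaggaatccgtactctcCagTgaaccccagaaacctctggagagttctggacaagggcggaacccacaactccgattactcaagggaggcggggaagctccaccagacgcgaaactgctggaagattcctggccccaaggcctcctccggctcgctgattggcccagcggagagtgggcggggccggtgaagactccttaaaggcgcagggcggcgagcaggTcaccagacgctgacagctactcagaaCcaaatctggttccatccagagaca
Hspa1b: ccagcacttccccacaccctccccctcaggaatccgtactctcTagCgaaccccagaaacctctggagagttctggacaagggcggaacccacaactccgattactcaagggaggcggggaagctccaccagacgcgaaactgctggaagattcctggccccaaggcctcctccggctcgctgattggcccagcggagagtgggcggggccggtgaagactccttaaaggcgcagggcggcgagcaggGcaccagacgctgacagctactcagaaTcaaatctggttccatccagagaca

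The promoters of the ER members are shown because both held the ER stress response element, that is CCAAT and CCACG with any 9 bases between them, searched on both strands and found in 39 of 32851 RefSeq promoters (0.119%). The capitals mark each match in Hspa5 (chr2:34771840-34772139, plus strand) and Hsp90b1 (chr10:86705395-86705694, minus strand). Hspa5 held 1 match, beginning 65 bases before the start site, and Hsp90b1 held 2, on opposite strands.
Hspa5: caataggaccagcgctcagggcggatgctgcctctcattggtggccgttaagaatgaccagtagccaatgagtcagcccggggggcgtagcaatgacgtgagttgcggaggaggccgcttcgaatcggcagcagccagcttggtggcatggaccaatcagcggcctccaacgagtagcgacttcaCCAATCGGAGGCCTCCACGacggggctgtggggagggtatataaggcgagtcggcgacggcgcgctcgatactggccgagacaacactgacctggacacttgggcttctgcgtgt
Hsp90b1: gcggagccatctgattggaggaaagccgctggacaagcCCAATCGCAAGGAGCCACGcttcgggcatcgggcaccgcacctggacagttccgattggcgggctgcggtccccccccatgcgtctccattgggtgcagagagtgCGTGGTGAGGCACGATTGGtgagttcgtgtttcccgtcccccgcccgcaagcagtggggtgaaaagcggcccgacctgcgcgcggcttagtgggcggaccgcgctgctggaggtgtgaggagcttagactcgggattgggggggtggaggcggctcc

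Of the other 20 ER chaperones and folding enzymes listed for comparison, 17 had a promoter in the table and 6 of these held the element (Calr, Canx, Creld2, Dnajc3, Pdia6 and Syvn1). The heat shock element was searched as GAA, TTC and GAA with any 2 bases between neighbours, on both strands. Only exact matches were counted, so a promoter without a match can still hold a site with a differing base. An exact match was found in 198 promoters (0.603%) and was present in 1 of the 7 matched members. This was Hsph1 (chr5:149636287-149636586, minus strand, the first of its listed starts), where the match, in capitals, lies just after the start site.
Hsph1: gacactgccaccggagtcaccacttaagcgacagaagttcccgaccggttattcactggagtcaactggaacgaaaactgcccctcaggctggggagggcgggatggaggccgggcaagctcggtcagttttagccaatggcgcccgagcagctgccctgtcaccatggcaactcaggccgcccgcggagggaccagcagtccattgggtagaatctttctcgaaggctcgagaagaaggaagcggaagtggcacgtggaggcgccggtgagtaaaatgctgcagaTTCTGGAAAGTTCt

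Before the chaperones were compared, Tgfb1 was checked in every library. Its level was 1.3 to 2.0 TPM in KO microglia, against 2.8 to 3.4 TPM in control microglia, and the groups did not overlap. The means were 1.7 ± 0.294 TPM in KO microglia and 3.0 ± 0.271 TPM in control microglia (SD, n = 4 each; exact two-sided permutation test, p = 0.0286, the smallest that 70 assignments allow), and the log2 difference was -0.57 ± 0.16 (SE; limma adjusted p = 0.0258). In astrocytes it was at most 0.3 TPM in KO and 0.1 TPM in control libraries. Between 12456 and 15484 genes reached 1 TPM per library. The summed level of 7 microglia markers was 8443.2 to 9157.3 TPM in KO microglia and 35120.0 to 38822.2 TPM in control microglia, and that of 5 border-associated macrophage markers was 4267.5 to 4869.7 TPM in KO microglia and 299.2 to 516.1 TPM in control microglia; monocyte markers summed to at most 4.1 TPM in KO microglia and 9.7 TPM in control microglia. By limma, 2 of the 5 border-associated macrophage markers were higher in KO microglia, 1 was lower and 2 did not pass. Over all genes tested in microglia, 14.2% were called higher and 14.2% lower. Astrocyte markers summed to 16767.4 to 29585.8 TPM in KO astrocytes and 23509.8 to 25598.1 TPM in control astrocytes. Oligodendrocyte markers summed to 4908.9 to 12155.4 TPM in KO astrocytes and 3408.5 to 5015.3 TPM in control astrocytes. In microglia the oligodendrocyte sums were 67.9 to 99.4 TPM in KO and 61.6 to 129.6 TPM in control libraries. In bulk samples such as these, a lower share of a cell type and less RNA per cell cannot be told apart. Animals also differed in sex-linked RNA: Xist was 28.6 to 48.3 TPM in every library of the 4 KO animals and of controls 1 and 2, and 0 in those of controls 3, 4 and 5, which had 46.0 to 56.3 TPM of Ddx3y. Controls 1 and 2 are therefore the controls that match the KO animals in this respect.

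Hspa8 was the highest in all 4 groups, with means of 3927 ± 325 TPM in KO microglia, 3765 ± 1666 TPM in control microglia, 3857 ± 436 TPM in KO astrocytes and 3660 ± 870 TPM in control astrocytes (SD, n = 4, 4, 4 and 5), which placed it at rank 16 to 26 of all genes by group mean. Hspa5, Hsp90b1 and Hsp90ab1 followed at 933 to 2040 TPM in an order that differed between groups, and their ranges overlapped in every group. Hsp90aa1 averaged 252 to 691 TPM and Dnajb1 53.9 to 104 TPM, neither overlapping its neighbours in microglia. The inducible HSP70 genes stood near the bottom: Hspa1a averaged 16.95 ± 12.1 TPM in KO microglia, 14.5 ± 18.1 TPM in control microglia, 24.3 ± 17.3 TPM in KO astrocytes and 19.8 ± 19.9 TPM in control astrocytes, with ranges that overlapped those of Hsph1 in each group. Hspb1 had the lowest mean in microglia (2.48 ± 1.71 TPM in KO and 2.10 ± 2.92 TPM in control), overlapping Hspa1b, and ranked higher in astrocytes.

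**Figure D1:**
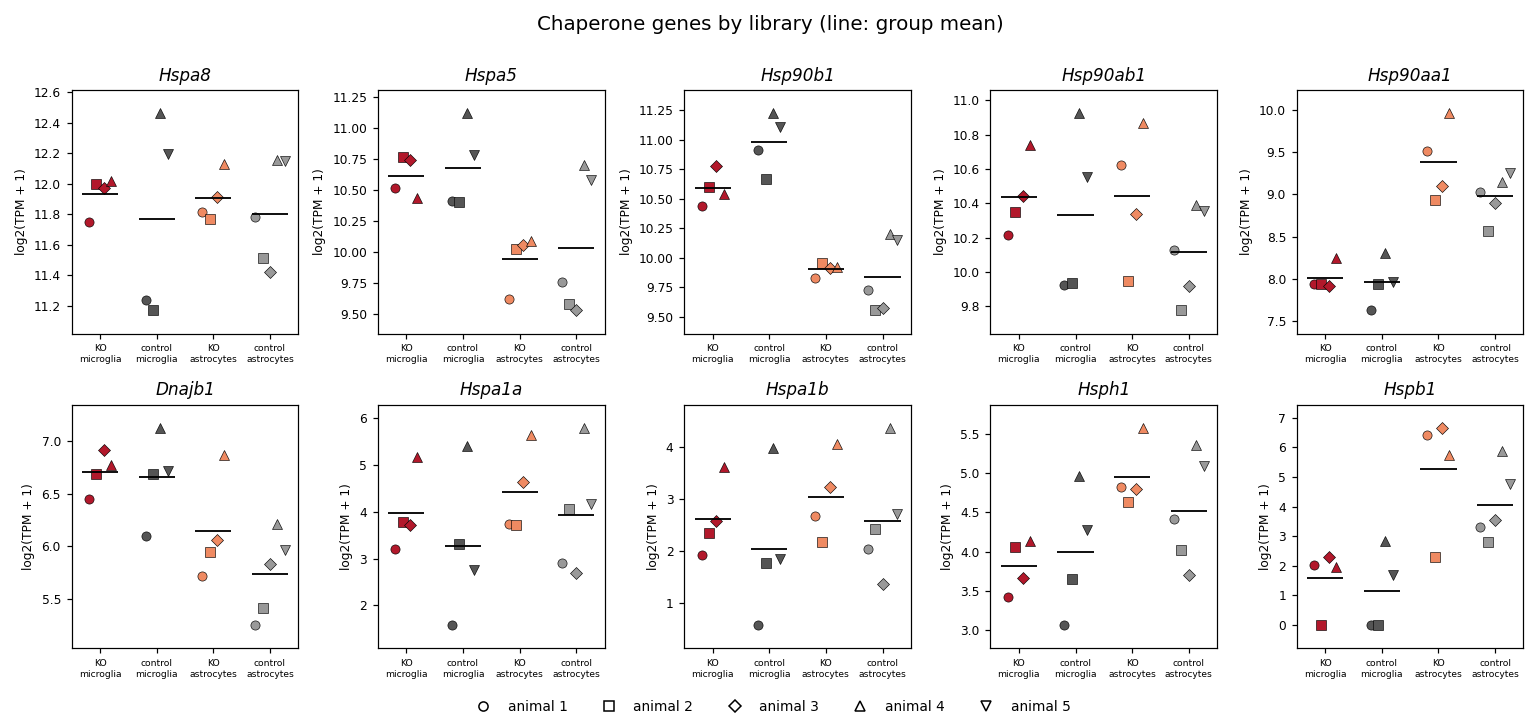
Each panel plots the level of 1 chaperone gene, as log2(TPM + 1), in the 17 libraries by group, with the animal given by the symbol and the group mean by a line. The triangles of control animal 4 lie at the top of their group for nearly every gene, and the KO and control ranges of a cell type overlap in all panels.

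The inducible pair Hspa1a and Hspa1b varied widely between animals of 1 group, and the genotypes overlapped. The genes lie side by side on GRCm38 chromosome 17, Hspa1a at 34969190 to 34972156 and Hspa1b at 34956436 to 34959238, both on the minus strand. Hspa1a had 8.2, 12.7, 12.1 and 34.8 TPM in microglia of KO animals 1 to 4, against 2.0, 8.9, 41.4 and 5.8 TPM in microglia of control animals 1, 2, 4 and 5. In astrocytes it had 12.4, 12.1, 23.7 and 48.9 TPM in KO animals 1 to 4, against 6.5, 15.7, 5.5, 54.1 and 17 TPM in control animals 1 to 5. The highest value of each of the 4 groups belonged to the animal numbered 4, and the KO and control ranges overlapped in both cell types. The highest control microglia value was 20.7-fold the lowest, and the SD of 1.598 on the log2 scale was larger than that of 99.1% of 8557 genes averaging 5 TPM or more in that group. Hspa1b, which encodes a nearly identical protein, followed with 2.8, 4.1, 5.0 and 11.3 TPM in KO microglia and 0.5, 2.4, 14.9 and 2.6 TPM in control microglia. Over the 17 libraries the summed level of the pair ranged from 2.5 to 73.7 TPM, a 29.5-fold range, while the Hspa1a to Hspa1b ratio stayed between 2.10 and 4.00 with a median of 3.04. The genes share 1628 of the 61-base stretches of their transcripts, and 64.3% of Hspa1a and 59.4% of Hspa1b stretches occur in another gene. How the authors' counting divided or dropped reads that fit several genes therefore affects each level, their sum and their place among the members.

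Hspa8, the constitutive HSP70, had 3446, 4085, 4024 and 4153 TPM in KO microglia, against 2414, 2309, 5641 and 4695 TPM in control microglia. The KO values thus lay between a low pair (controls 1 and 2) and a high pair (controls 4 and 5) of control animals. In astrocytes Hspa8 had 3606, 3496, 3853 and 4471 TPM in KO animals and 3516, 2921, 2742, 4573 and 4547 TPM in controls 1 to 5, again with controls 4 and 5 highest. A processed pseudogene, Gm15459, shares most of the 66.2% of Hspa8 stretches that occur elsewhere. Hsph1, the nucleotide exchange factor, was at 9.7 to 16.6 TPM in KO microglia and 7.4 to 30.3 TPM in control microglia, and at 23.8 to 46.6 TPM in KO astrocytes and 12 to 39.9 TPM in control astrocytes. Dnajb1, which stimulates the HSP70 ATPase and hands it substrates, was at 86.2 to 119.5 TPM in KO microglia and 67.4 to 138.4 TPM in control microglia, and at 51.8 to 116.1 TPM in KO astrocytes and 37.2 to 73.1 TPM in control astrocytes.

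Among the cytosolic HSP90 genes, Hsp90aa1 and Hsp90ab1 encode the more inducible and the more constitutive protein. Hsp90aa1 had 244.6, 245.1, 240.5 and 303.6 TPM in KO microglia and 197.7, 244.3, 316.2 and 249.8 TPM in control microglia, with 731.4, 487.7, 549.1 and 994.9 TPM in KO astrocytes and 520.0, 379.4, 474.7, 565.1 and 609.1 TPM in control astrocytes. No microglia value reached the lowest astrocyte value in either genotype. Hsp90ab1 did not separate the cell types: it was at 1188 to 1706 TPM in KO microglia, 970 to 1941 TPM in control microglia, 988 to 1864 TPM in KO astrocytes and 878 to 1340 TPM in control astrocytes. The Hsp90ab1 to Hsp90aa1 ratio was therefore 4.86 to 5.78 in KO microglia, 4.00 to 6.14 in control microglia, 1.87 to 2.35 in KO astrocytes and 2.04 to 2.37 in control astrocytes. It separated the cell types without overlap and overlapped between genotypes, and it was chosen for description after its values were seen. What part other cells in the astrocyte libraries had in this ratio was not tested. Of Hsp90aa1 stretches, 47.9% occur in another gene, chiefly the pseudogene Gm12346, compared with 2.2% of Hsp90ab1.

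**Figure D2:**
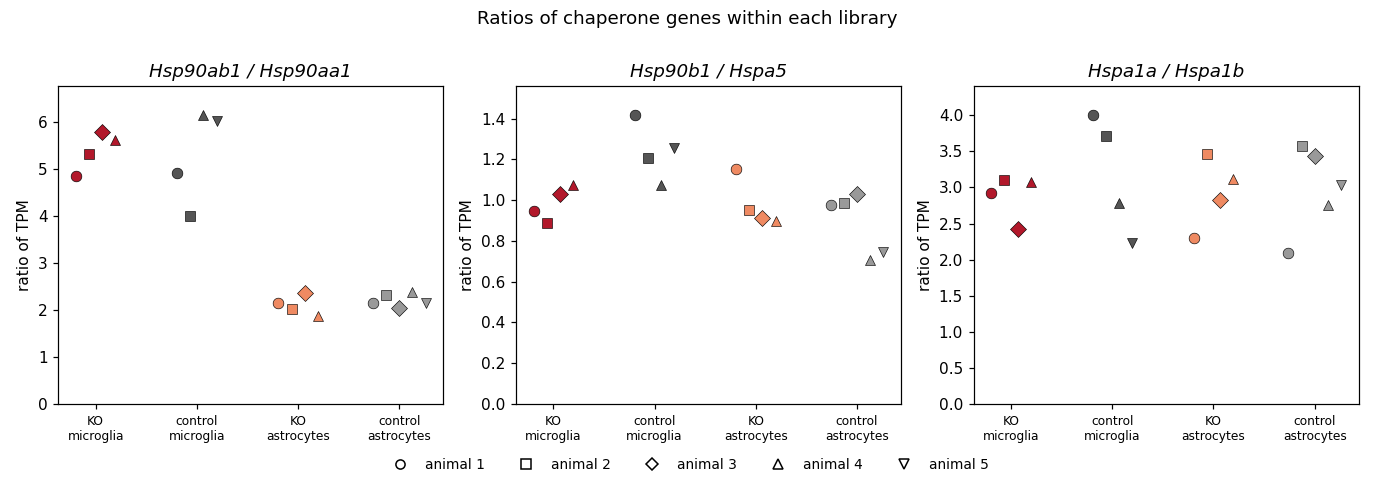
The panels plot the ratio of TPM of pairs of chaperone genes in each of the 17 libraries, by group and animal. Hsp90ab1 exceeded Hsp90aa1 by 4.00 to 6.14 times in microglia and by 1.87 to 2.37 times in astrocytes, and the Hspa1a to Hspa1b ratio stayed between 2.10 and 4.00.

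Hsp90b1, the ER HSP90 needed for folding of integrins and Toll-like receptors, was the only member that passed the test between genotypes, and it was lower in KO microglia. The gene lies on GRCm38 chromosome 10, 86690209 to 86705509, minus strand. It had 1390.1, 1547.7, 1756.3 and 1490.2 TPM in KO microglia, against 1927.7, 1629.0, 2393.0 and 2210.3 TPM in control microglia. The ranges overlapped through KO animal 3 and control animal 2. The log2 difference was -0.39 ± 0.13 (SE; 95% interval -0.68 to -0.10; limma adjusted p = 0.0460). Its ER partner Hspa5 had 1465.6, 1739.7, 1709.5 and 1385.3 TPM in KO microglia and 1361.5, 1352.4, 2224.2 and 1761.9 TPM in control microglia, a difference of -0.06 ± 0.16 (limma adjusted p = 0.813). The Hsp90b1 to Hspa5 ratio was 0.890 to 1.076 in KO microglia and 1.076 to 1.416 in control microglia, so that all KO ratios lay below all control ratios, the nearest pair being equal to 3 decimals; it too was chosen after its values were seen. In astrocytes the ratio was 0.895 to 1.154 in KO and 0.708 to 1.029 in control libraries. Part of the Hsp90b1 transcripts, 11.6% of the stretches, is shared with other loci, mainly the overlapping 1810014B01Rik.

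In KO against control microglia, then, 1 of 10 members was called, and it was lower; 3711 of the 13054 genes tested were called (28.4%), 14.2% lower and 14.2% higher, so the members' share was below that of all genes. Adjusted p-values of the other 9 members were 0.538 to 0.895 by limma. Their log2 differences lay between -0.17 and 0.70, with standard errors of up to 0.73 for Hspa1a and 0.72 for Hspb1, and their 95% intervals reached 2.34 for Hspa1a but only -0.27 to 0.37 for Hsp90aa1. The median over the 10 members was 0.08, beside 0.004 over all genes tested. The call of Hsp90b1 was lost in several other fits: the adjusted p was 0.105 without a filter on low values, 0.0919 without a variance trend, 0.0689 in a fit over all 4 groups, 0.199 without the animals numbered 4, and 0.0661 to 0.123 when control 1, 4 or 5 or KO 1, 2 or 4 was left out, although the difference stayed negative, between -0.58 and -0.20, in all fits run. It was smallest against controls 1 and 2 alone, the controls that match the KO animals in Xist, at -0.20 ± 0.12 (SE; 95% interval -0.48 to 0.07; limma adjusted p = 0.261).

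In microglia, the direction of most members turned on which controls were used. For 8 of the 9 members tested against both pairs of controls, the difference had the opposite sign against controls 4 and 5 and against controls 1 and 2. In astrocytes, where control 3 joined controls 4 and 5, this held for 3 of 10 members. How often signs differed in this way over all genes was not counted. Against controls 1 and 2 alone, Hspa8 was higher in KO microglia by 0.73 ± 0.10 (SE, log2; limma adjusted p = 0.0015) and Hsp90ab1 by 0.51 ± 0.14 (adjusted p = 0.0364), 2 of the 9 members tested and without Hsp90b1, with 23.7% of genes called (14% higher and 9.7% lower). Against controls 4 and 5 alone, Hsp90b1 was lower by -0.58 ± 0.11 (adjusted p = 0.00566) and Hspa8 by -0.39 ± 0.11 (adjusted p = 0.0354), 2 of 10, with 29.8% of genes called (14.5% lower and 15.3% higher). Hspa8 thus passed in opposite directions against the control pairs. The differences of Hspa1a (1.52 ± 0.62, adjusted p = 0.122) and Hspa1b (1.45 ± 0.51, adjusted p = 0.081) against controls 1 and 2 were larger but did not pass by limma.

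**Figure D3:**
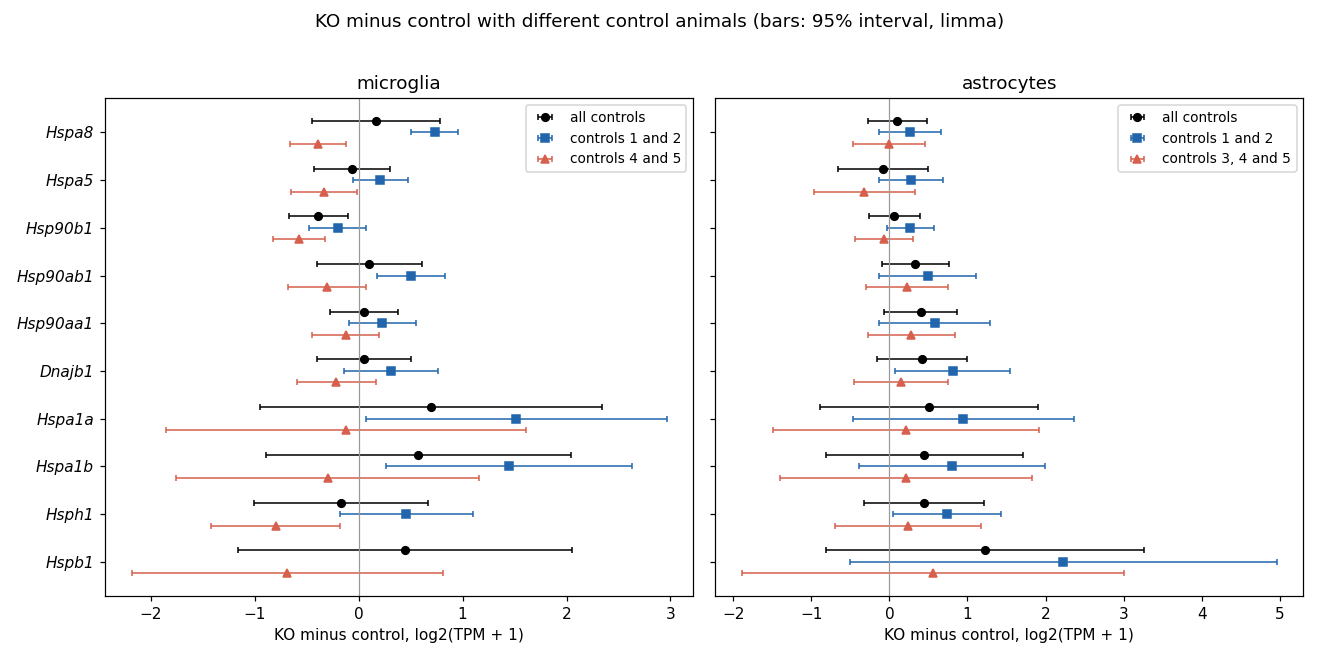
Points give the KO minus control difference on the log2(TPM + 1) scale with its 95% interval from limma, in microglia (left) and astrocytes (right), against all controls, controls 1 and 2, or the remaining controls. In microglia the difference of Hspa8 is 0.73 against controls 1 and 2 and -0.39 against controls 4 and 5, and Hsp90b1 is below 0 in all 3 fits.

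The split among controls ran through the whole family. In microglia both of controls 4 and 5 were above both of controls 1 and 2 for 9 of 10 members, against 28.6% of the 13054 genes tested. In astrocytes this held for 10 of 10, against 25.9% of 15231 genes. The mean of controls 4 and 5 was 2.19-fold that of controls 1 and 2 for Hspa8 in microglia and 1.42-fold in astrocytes, 2.56-fold and 2.06-fold for Hsph1, and 4.33-fold and 3.20-fold for Hspa1a. The exception was Hspa1a in microglia, where control 5 (5.8 TPM) lay below control 2 (8.9 TPM). The KO mean fell between the means of the control pairs for 9 of 10 members in microglia and 6 of 10 in astrocytes. In microglia this largely restates the opposite signs given above and is not a separate result. How often the KO mean fell between the control pairs over all genes was not counted. Control 3, present in astrocytes only, had Ddx3y like controls 4 and 5. It was below both of them for all 10 members, and the share of all genes below both was not counted. Control 3 had 2742 TPM of Hspa8 and 5.5 TPM of Hspa1a. Its Dnajb1, at 56.0 TPM, was nearer to that of control 5 (61.4 TPM) than to those of controls 1 and 2 (37.2 and 41.8 TPM). In the labels' sample codes, controls 1 and 2 come first, then control 3, the KO animals, and controls 4 and 5 last; what that order stands for is not stated. The share of TPM from 13 mitochondrial genes was 2.11% and 2.30% in microglia of controls 4 and 5, and 2.44% and 2.56% in those of controls 1 and 2. The summed level of mural and fibroblast-like markers was 3183 and 2879 TPM in astrocytes of controls 4 and 5, and 433 and 183 TPM in those of controls 1 and 2. What part these differences have in the split was not tested.

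In astrocytes, no member passed the test between genotypes: 0 of 10, with 1 of 15231 genes called in all (0.00657%), 1939 genes at an unadjusted p under 0.05, and none of the members among them. The smallest adjusted p-value of a member was 0.443 by limma, for Hsp90aa1 (log2 difference 0.40 ± 0.21 SE; 690.8 ± 227.6 TPM in KO and 509.7 ± 88.4 TPM in control astrocytes, SD, n = 4 and 5). The median difference over the members was 0.41, beside 0.07 over all genes tested. The interval of Hspa8 was -0.27 to 0.48, and that of Hspa1a -0.89 to 1.898, so a rise of several-fold in Hspa1a was not excluded.

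Hspb1, an actin-binding small heat shock protein that is abundant in vessel-wall cells, had the widest spread. It had 85.0, 3.9, 99.7 and 53.0 TPM in KO astrocytes and 9.0, 5.9, 10.6, 58.4 and 25.9 TPM in control astrocytes, a log2 difference of 1.22 ± 0.92 (SE; limma adjusted p = 0.576). The values ran with mural and fibroblast-like markers, whose sums were 6274, 737, 9555 and 3611 TPM in the same KO astrocyte libraries and 433, 183, 1038, 3183 and 2879 TPM in the same control libraries. The KO animal with the lowest Hspb1 was also the KO animal with the lowest sum, and the control with the highest Hspb1 had the highest control sum. The part of such cells in the Hspb1 level was not tested. In microglia Hspb1 was listed at 0 in KO animal 2 and in controls 1 and 2, and at most at 6.2 TPM elsewhere; 48.0% of its stretches also occur in another gene, chiefly the pseudogene Hsp25-ps1.

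The KO effect was also compared directly between microglia and astrocytes. No member passed (0 of 10, with 15.5% of 17087 genes called, 6.63% higher and 8.87% lower, and Tgfb1 among them at -0.71 ± 0.18, adjusted p = 0.0133 by limma). Hsp90b1 came closest, with a difference of effects of -0.46 ± 0.20 (limma adjusted p = 0.150). When the animal was added as a block, which the shared animals allow, the difference was -0.39 ± 0.09 and passed (limma adjusted p = 0.0213); it was then 1 of 10 members called, beside 14% of all genes (6.27% higher, 7.77% lower).

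Between cell types, Hsp90b1 was higher and Hsp90aa1 and Hspb1 were lower in microglia than in astrocytes, in both genotypes. The astrocyte libraries also held more RNA of oligodendrocyte markers and of mural and fibroblast-like markers than the microglia libraries. What part such cells had in the differences between cell types was not tested. In KO animals 5 of 10 members passed: Hsp90b1 (0.68 ± 0.09, SE on the log2 scale) and Hspa5 (0.67 ± 0.13) were higher in microglia, and Hsp90aa1 (-1.37 ± 0.21), Hsph1 (-1.13 ± 0.24) and Hspb1 (-3.71 ± 0.93) were lower, with limma adjusted p-values of 0.000101 to 0.00544. In control animals 4 of 10 passed: Hsp90b1 (1.14 ± 0.17) and Dnajb1 (0.92 ± 0.24) were higher in microglia, and Hsp90aa1 (-1.01 ± 0.16) and Hspb1 (-2.93 ± 0.75) were lower, with limma adjusted p-values of 0.000137 to 0.00644. These shares are below those of all genes, 69.4% in KO and 65.7% in control animals (26.4% and 26.2% higher, 42.9% and 39.5% lower). With the animal as a block, 6 of 10 passed in KO animals, Dnajb1 being added (0.55 ± 0.18, limma adjusted p = 0.0303), beside 69% of all genes (26.3% higher, 42.8% lower). In control animals the block gave 8 of 10, beside 63.5% of all genes (24.9% higher, 38.5% lower). The additions were Hspa5 (0.53 ± 0.11, adjusted p = 0.00615), Hspa1a (-0.96 ± 0.22, adjusted p = 0.00998), Hspa1b (-0.84 ± 0.23, adjusted p = 0.0191) and Hsph1 (-0.73 ± 0.21, adjusted p = 0.0227), all by limma. Hspa8 passed in neither genotype in these fits, with intervals without the block of -0.21 to 0.27 in KO and -0.67 to 0.60 in control animals. With controls 1 and 2 only, Hspa8 was lower in microglia (-0.44, limma adjusted p = 0.0232), with 3339 of 9473 genes called. With the remaining controls only, Hsp90ab1 was higher in microglia (0.52, limma adjusted p = 0.0476), with 6063 of 11247 genes called. The median gene was lower in microglia by 0.24 in KO and 0.19 in control animals, and higher by 0.11 in both after quantile normalization. Under that scaling Hspa8 was lower in microglia of KO animals (-0.36, limma adjusted p = 0.0153) and Hspa1b changed sign there (0.01, limma adjusted p = 0.985).

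**Figure D4:**
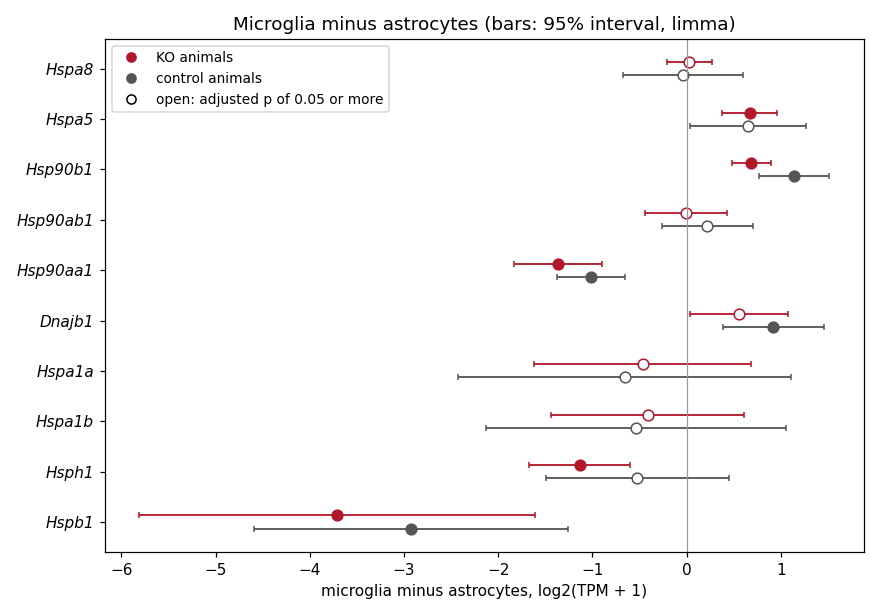
Points give the microglia minus astrocytes difference of each chaperone gene on the log2(TPM + 1) scale, in KO animals (red) and control animals (grey), with 95% intervals from limma; filled points passed an adjusted p of 0.05. Hsp90b1 lies right of 0, and Hsp90aa1 and Hspb1 left of 0, in both genotypes.

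An animal with high inducible HSP70 in its microglia tended to have it high in its astrocytes as well. Over 8 animals with both cell types, the log2 levels of Hspa1a in microglia and astrocytes had Pearson's r = 0.93 (exact permutation p = 0.00278) and Spearman's rho = 0.69 (exact p = 0.0694). For Hspa1b r was 0.91 (exact permutation p = 0.00179; rho 0.83, exact p = 0.0154). For Hspa8 r was 0.85 (exact permutation p = 0.00503; rho 0.86, exact p = 0.0107) and for Hspa5 0.84 (exact permutation p = 0.00635; rho 0.79, exact p = 0.0279). Hspb1, with 3 microglia libraries listed at 0, had r = 0.94 (exact permutation p = 0.00357; rho 0.90, exact p = 0.00536). Without the 2 animals farthest from the median, r was 0.81 for Hspa1a, 0.85 for Hspa1b, 0.75 for Hspa8, 0.63 for Hspa5 and 0.90 for Hspb1. All 10 members were examined and these p-values are not adjusted for that. After Benjamini-Hochberg adjustment over the 10, the exact p of r was 0.0119 to 0.0127 for the members named so far. That of rho was 0.0991 for Hspa1a, 0.0559 for Hspa5, 0.0385 for Hspa1b and 0.0357 for Hspa8 and Hspb1. In the other 5, r was 0.46 to 0.66 with exact permutation p-values of 0.0728 to 0.247. Their rho was 0.43 to 0.71 (exact p 0.0576 to 0.299), except for Dnajb1, where it was 0.86 (exact p = 0.0107) as for Hspa8. For Hsp90b1 r was 0.58 and turned to -0.29 without controls 4 and 5. A share of 0.431% of 7191 genes of at least 5 TPM in both cell types had an r as high as that of Hspa1a, 1.98% as high as that of Hspa8 and 2.23% as high as that of Hspa5, and the median r of all these genes was 0.13. After the genotype means were removed, r was 0.94 for Hspa1a, 0.88 for Hsp90b1, 0.86 for Hspa8 and 0.84 for Hspa5; each genotype alone has only 4 such animals, too few for a correlation.

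**Figure D5:**
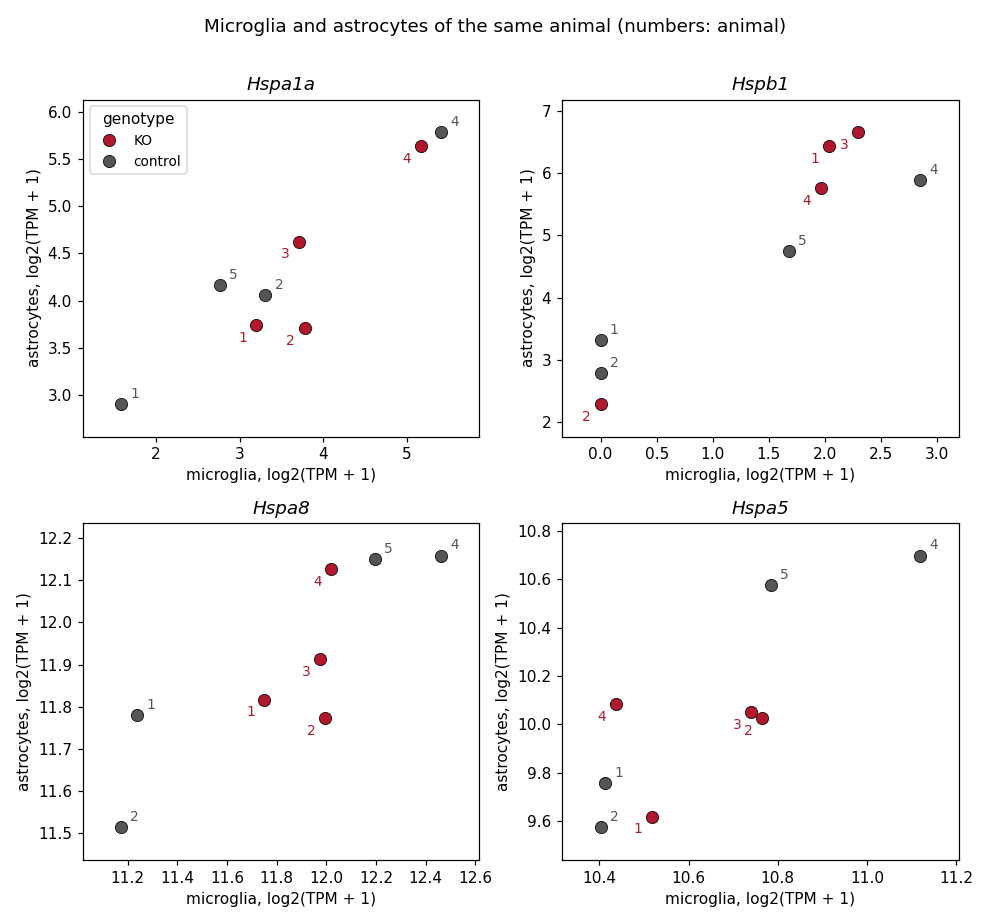
Each point is an animal, placed by the level of the gene in its microglia (horizontal) and in its astrocytes (vertical), both as log2(TPM + 1), with KO animals in red and control animals in grey. Control 4 has the highest value in both cell types for Hspa1a, Hspa8 and Hspa5, and the KO animal numbered 4 lies next to it for Hspa1a.

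Within groups the levels of the members were positively correlated. After group means were removed, all 45 pairs of members had positive correlations over the 17 libraries, from 0.40 to 0.98 with a median of 0.67. The libraries share animals, so these values are descriptive, and pairs of other genes were not counted beside them. Removing group means leaves the split among controls, which 28.6% of genes in microglia and 25.9% in astrocytes also showed. The 5 other genes most like Hspa1a by the same measure, among 10008 of at least 5 TPM, were Dnajb11 (0.89), Gm3055 (0.84), Mir6908 (0.83), Xbp1 (0.83) and Sdf2l1 (0.82). Dnajb11 and Sdf2l1 encode cofactors of BiP in the ER, and Xbp1 encodes a transcription factor of the unfolded protein response. Those most like Hspa5 were Mir704 (0.93), Gapvd1 (0.92), Lifr (0.92), Zbtb16 (0.92) and Ndrg3 (0.92). Mir704 is annotated within Pdia4, a gene of an ER disulfide isomerase, on the same strand (GRCm38 chromosome 6, 47803576 to 47803652), and Gapvd1 (chromosome 2, 34674594 to 34755232) is close to Hspa5 (chromosome 2, 34771970 to 34777547) on the opposite strand.

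The counts of the wider chaperone network in microglia stand beside 14.2% of all genes called higher and 14.2% called lower. Of 7 tested HSP70 and HSP110 relatives, 1 was higher in KO microglia: Hspa4l, an HSP110 gene, at 7.23 ± 1.03 TPM in KO and 1.63 ± 1.19 TPM in control microglia (SD, n = 4 each; log2 difference 1.74, limma adjusted p = 0.00178). Of 18 HSP90 relatives and cochaperones, 3 were lower, among them Dnajc7 by -0.38 and Ppid by -0.34 on the log2 scale, and none was higher. Of 11 J-domain cochaperones, Dnajb14, an ER membrane protein, was higher (24.7 ± 1.53 TPM in KO and 12.3 ± 1.57 TPM in control microglia) and Dnajb4 was lower (7.53 ± 0.64 TPM in KO and 13.7 ± 1.91 TPM in control microglia). Of 9 HSP70 cofactors, Hspbp1 and the ubiquitin ligase Stub1 were higher, by 0.46 and 0.40, and Bag2 was lower, by -1.60. Among 5 tested small heat shock genes only Hspb3 passed, at 15.3 ± 7.98 TPM in KO and 91.5 ± 11.4 TPM in control microglia (-2.62 ± 0.29 SE, limma adjusted p = 0.00012). Of 10 chaperonin subunits, Cct6a (-0.40) and Cct8 (-0.25) were lower.

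Of 19 tested ER chaperones and folding enzymes, 3 were lower in KO microglia, a share near the 14.2% of all genes, and none was higher, with a median log2 difference of -0.22 beside 0.004 over all genes. Edem1, which sorts misfolded glycoproteins for degradation, was at 50.6 ± 5.35 TPM in KO and 106.3 ± 15.8 TPM in control microglia (-1.05 ± 0.13 SE, limma adjusted p = 0.000227). Herpud1, of the ER degradation complex, was lower by -0.47, and the ER stress protein Manf by -0.37. Of 8 unfolded protein response regulators, Atf4 was lower (55.9 ± 2.32 TPM in KO and 82.5 ± 3.31 TPM in control microglia; -0.55 ± 0.09 SE, limma adjusted p = 0.000986) and Ppp1r15a was higher (132.5 ± 23.6 TPM in KO and 82.7 ± 11.9 TPM in control microglia; 0.67 ± 0.15 SE, limma adjusted p = 0.00787). None of 3 heat shock factor genes passed; Hsf1 was at 20.2 ± 2.31 TPM in KO and 24.3 ± 4.84 TPM in control microglia (limma adjusted p = 0.348).

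Immediate-early genes, listed because dissociation induces them, did move with genotype in microglia. Of 20 tested, 10 were higher and 2 lower in KO microglia, beside 14.2% of all genes in each direction, with Fos at 139.6 ± 36.2 TPM in KO and 7.25 ± 5.26 TPM in control microglia, and Ier3, Nfkbiz and Dusp1 higher by 2.88, 1.92 and 3.09 on the log2 scale. Their summed level was 2766 to 3346 TPM in KO microglia and 1664 to 2359 TPM in control microglia, without overlap. It was 2249 and 2359 TPM in controls 4 and 5, and 1664 and 1893 TPM in controls 1 and 2. The inducible Hspa1a and Hspa1b overlapped between the genotypes in the same libraries. Against controls 1 and 2 alone they were higher in KO microglia, by 1.52 and 1.45 on the log2 scale, without passing. Against controls 4 and 5 alone the differences were -0.12 and -0.30, also without passing. The part of the immediate-early list in the differences of Hspa1a, Hspa1b and Hsp90b1 was not tested. In astrocytes no gene of any of the 10 lists passed; the sums of immediate-early genes were 1041 to 1432 TPM in KO and 1060 to 1334 TPM in control astrocytes, and the smallest adjusted p-value in the lists was 0.268 by limma, for Dnajc2 (17.1 ± 1.27 TPM in KO and 10.2 ± 2.61 TPM in control astrocytes, SD, n = 4 and 5).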

How the data were processed

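RNA from sorted microglia and astrocytes was sequenced as paired 61-base reads, per the labels' protocols. The authors deposited TPM per gene for each library, with 1 decimal; per the submitters' processing notes, STAR 2.6.1e, featureCounts 1.6.2, Trim Galore 0.4.2 and cutadapt 1.9.1 were used with mm10, their settings not being given. Reads per library are not given as counts, so the depth is unknown, and no counting interval or limit of detection is given. Of 18 libraries, 17 were compared; the other has labels that name both cell types.

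Differences were tested with limma 3.58.1 (R 4.3.3) on log2(TPM + 1) with a variance trend, over genes that reached 1 TPM in 4 or more fitted libraries, with Benjamini-Hochberg adjustment over all genes tested and a threshold of 0.05. Fold changes on this scale understate those of low genes. The test was checked on simulated data with 200 changed genes. Libraries are separate animals within a group and cell type. In all 8 animals with both cell types, a library resembled that of its own animal most among those of the other cell type (correlations of deviations from group means 0.03 to 0.19), and the labels name the same mouse; KO and control animals share numbers only.

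Named genes are the 10 members, Tgfb1, up to 4 genes per chaperone list with the smallest p-values past the threshold (otherwise 2 as values; 1 such gene is not reported here), and the 5 genes most like Hspa1a and Hspa5. Members and lists were chosen with earlier results of these data known. Gene positions are from GENCODE M21 (GRCm38) and promoters from RefSeq (GRCm38.p6). Shared sequence was counted over 61-base stretches of annotated transcripts. Alternatives changed the pseudocount (0.1 and 5), the filter (none and 5 TPM), the scaling, the variance trend, the block, the pooled fit, the controls used, the summing of Hspa1a and Hspa1b, and each library in turn.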

Additional observations from a re-analysis of the deposited data

Results flagged for a closer look

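In each of the 40 combinations of a member and a group, the highest and lowest library were compared with the rest, and 4 stood far from the other libraries of their group; chance gives about 1 in 20. Hspa5 was at 785.4 TPM in astrocytes of KO animal 1, where the other KO astrocyte libraries were at 1041.0 to 1084.0 TPM. Hspa8 was at 3445.8 TPM in microglia of KO animal 1, where the others were at 4024.3 to 4153.2 TPM. Hsp90aa1 was at 303.6 TPM in microglia of KO animal 4, where the others were at 240.5 to 245.1 TPM. Hspb1 was listed at 0.0 TPM in microglia of KO animal 2, where the others were at 2.9 to 3.9 TPM; the same animal had the lowest Hspb1 of the KO astrocytes, 3.9 TPM.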

How the results depend on the processing

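The count of members called in astrocytes between genotypes was 0 under every alternative run. In KO animals between cell types the count of 5 was 4 to 7: 4 with the filter at 5 TPM, 6 with median-of-ratios scaling, the replicate block and without the animals numbered 4, and 7 with quantile normalization; leaving out 1 library gave 5 to 6. In KO against control microglia the count of 1 became 0 with no filter, with no variance trend, with the replicate number as a block, in 1 fit over all groups, and without the animals numbered 4 (an alternative added after seeing the data), and 2 against controls 1 and 2 and against controls 4 and 5; leaving out 1 library gave 0 to 1. With the replicate block the difference of effects gave 1 member in place of 0, and the control cell types 8 in place of 4. The cause was not tested. KO and control animals share only a number (correlations of same-numbered libraries -0.08 to 0.18), so their blocked values say nothing of a weaker effect; for Hsp90b1 the blocked value was -0.41 (limma adjusted p = 0.141).

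Tgfb1 stayed lower but missed the threshold with no filter (-0.57), the replicate block (-0.60), controls 1 and 2 (-0.62), controls 4 and 5 (-0.52) and without the animals numbered 4 (-0.64). With 1 library left out, Tgfb1 was -0.62 to -0.50 and missed the threshold in 5 of 8 fits (limma adjusted p = 0.0355 to 0.0825 over the 8). Each of these fits has fewer samples.

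Signs of members that did not pass changed as follows on the log2 scale. Against controls 4 and 5, KO microglia differed by -0.12 for Hspa1a, -0.30 for Hspa1b, -0.39 for Hspa8, -0.13 for Hsp90aa1, -0.30 for Hsp90ab1, -0.22 for Dnajb1 and -0.69 for Hspb1; in astrocytes, against controls 3, 4 and 5, Hspa8 was -0.0038 and Hsp90b1 -0.068. Against controls 1 and 2, Hspa5 was 0.21 and Hsph1 0.46 in microglia and Hspa5 0.28 in astrocytes. Without the animals numbered 4, Hspa5 was 0.14 and Hsph1 0.048 in microglia, Hspa5 0.039 in astrocytes, and Hsp90ab1 0.032 between KO cell types. With the replicate block Dnajb1 was -0.0025 in microglia and Hspa5 0.055 in astrocytes. Quantile normalization gave -0.0049 for Hsp90ab1 in microglia, and 0.0099 for Hspa1b and -0.36 for Hspa8 between KO cell types. Median-of-ratios scaling gave 0.044 for Hspa8 between control cell types and 0.17 for Hsp90ab1 between KO cell types. Between control cell types, controls 4 and 5 in microglia with 3, 4 and 5 in astrocytes gave 0.10 for Hspa1b and 0.42 for Hspa8, and controls 1 and 2 gave -0.026 for Hsp90ab1. Leaving out 1 library gave, in microglia between genotypes, -0.16 to 0.083 for Hspa5, -0.030 to 0.40 for Hspa8, -0.060 to 0.16 for Hsp90aa1, -0.036 to 0.30 for Hsp90ab1, -0.14 to 0.20 for Dnajb1 and -0.48 to 0.15 for Hsph1. In astrocytes it gave -0.21 to 0.085 for Hspa5 and -0.0056 to 0.15 for Hsp90b1. Between cell types it gave -0.27 to 0.16 for Hspa8 in control animals, and -0.016 to 0.10 for Hspa8 and -0.17 to 0.13 for Hsp90ab1 in KO animals.

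Counts over all genes moved by more than 1.5 times in few fits. In microglia 3711 became 2079 with the replicate block (2011 shared) and 2366 without the animals numbered 4 (2248 shared). In astrocytes 1 became 88 in 1 fit over all groups and 0 to 5 in 9 other fits. The difference of effects gave 1397 in place of 2648 without the animals numbered 4, and the control cell types gave 3339 with controls 1 and 2 and 6063 without them, in place of 10078. Depth is unknown, and Hspa1b and Hspb1, at a few TPM in microglia, are the members most limited by it.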

Other observations

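The library outside the comparisons is titled as an astrocyte control and coded as microglia. Its 7 microglia markers summed to 31493.7 TPM and its 8 astrocyte markers to 288.4 TPM, and it had no Xist and 46.0 TPM of Ddx3y. It held 2314.9 TPM of Hspa8, 1605.2 TPM of Hsp90b1, 1296.9 TPM of Hspa5, 921.9 TPM of Hsp90ab1, 200.3 TPM of Hsp90aa1 and 92.7 TPM of Dnajb1. The lower members were at 11.9 TPM for Hsph1, 3.0 TPM for Hspa1a, 1.5 TPM for Hspb1 and 0.6 TPM for Hspa1b.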
